A study of Mus musculus with 9 samples.

Results

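The genes described here encode the deubiquitinase module of SAGA, a large transcriptional coactivator complex, together with Trrap, the subunit through which SAGA meets many activators. They are Usp22, Atxn7l3, Eny2, Atxn7, Atxn7l1, Atxn7l2 and Trrap. They were picked by name from a table of 54752 Ensembl gene identifiers, and all 7 were in the table and passed the filter on low counts that left 17931 genes for testing. The cells were B16F10, a melanoma line of the mouse, kept in DMEM with 10% FBS, and no other treatment is given. The libraries labelled Tada2b knockout came from cells with the guide Tada2bsg1 (n = 3) or the guide Tada2bsg2 (n = 3). The control libraries came from cells with the guide GFPsg and the genotype WT (n = 3). The labels say neither whether the cells of a guide were a clone or a pool nor whether replicates were separate cultures, so that p-values measure the spread between these libraries alone, and that spread may be technical.

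SAGA carries a pair of histone-modifying activities in separate modules. The acetyltransferase module, to which the targeted gene Tada2b belongs, acetylates histone H3, and the deubiquitinase module removes the single ubiquitin that is placed on histone H2B during transcription. In the deubiquitinase module Usp22 is the ubiquitin protease, which is inactive alone and works only when bound to the adaptors Atxn7l3 and Eny2, while Atxn7 or one of its paralogs holds the module onto the rest of SAGA. Usp22 has been studied in cancer, where its level has been linked to poor outcome.

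Library totals were 70.6 to 76.9 M counts (M, mega) over the 9 libraries, and no pair of replicates agreed within sampling noise. All 8 melanocyte markers examined were detected. Their summed level was 5130 to 5370 CPM (counts per 1 M counts of the library, with library sizes adjusted by the trimmed mean of M-values, TMM) in Tada2bsg1 libraries and 7260 to 7500 CPM in Tada2bsg2 libraries, against 21000 to 21800 CPM in GFPsg libraries. Of 8 leukocyte markers, 3 passed the filter, and the defining genes Ptprc and Itgam had 0 reads in every library. The summed leukocyte level was 6.65 to 7.02 CPM in Tada2bsg1 libraries and 5.95 to 6.18 CPM in Tada2bsg2 libraries, against 3.59 to 3.89 CPM in GFPsg libraries. Its 3 tested genes did not move together over both guides, since Lyz2 and Cd68 rose (log2 change 1.081 and 1.095) and Fcer1g fell (-1.19). Fibroblast and endothelial markers, of which 5 of 10 passed the filter, summed to 24.7 to 25.3 CPM with Tada2bsg1 and 22.3 to 24.5 CPM with Tada2bsg2, against 8.98 to 11.8 CPM with GFPsg. Of those 5, Col1a2, Col3a1 and Pdgfrb rose, Vwf fell (log2 change -2.109) and Pdgfra hardly moved (-0.039). Col3a1 had only 0 to 26 reads in any library. Its mean was 0.25 CPM with Tada2bsg1 and 0.178 CPM with Tada2bsg2, against 0.0095 CPM with GFPsg. Epithelial markers, of which 1 of 6 passed, summed to 0.115 to 0.309 CPM with Tada2bsg1 and 0.195 to 0.263 CPM with Tada2bsg2, against 0.765 to 0.797 CPM with GFPsg. The part of these marker shifts in the changes below was not tested.

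Tada2b, the targeted gene, had 32.3, 33.3 and 32.7 CPM in Tada2bsg1 libraries and 29.0, 26.0 and 25.9 CPM in Tada2bsg2 libraries, against 28.0, 25.2 and 26.6 CPM in GFPsg libraries. Its mRNA was thus no lower under either guide, and its level gives no check of the knockout label. In Tada2bsg1 libraries it was higher than in GFPsg libraries (log2 change 0.30, SE 0.055, edgeR adjusted p = 0.000213), whereas the change was 0.020 with Tada2bsg2 (SE 0.056, adjusted p = 0.806).

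In the libraries labelled Tada2b knockout, 5 of the 7 genes were higher than in GFPsg libraries and none was lower. The largest changes were in the anchoring subunits Atxn7 (1.35-fold) and Atxn7l1 (1.32-fold), followed by Atxn7l2 (1.22-fold), the adaptor Atxn7l3 (1.20-fold) and the protease Usp22 (1.08-fold). Eny2 and Trrap did not pass the test, though with the replicate number as a block Eny2 did (edgeR adjusted p = 0.0267). Calls are genes with a Benjamini-Hochberg adjusted p under 0.05 in edgeR's quasi-likelihood test, fitted to all 9 libraries and adjusted over all genes tested, with the mean of both guides set against GFPsg. By that rule 51.0% of all tested genes were called, 24.7% higher and 26.3% lower, so a called gene is common in this comparison. With libraries scaled by their totals alone, the share of calls that were higher was 63.3%, against 48.4% with TMM scaling. The median log2 change over the 7 genes was 0.26, and over all tested genes it was -0.019.

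**Figure D1:**
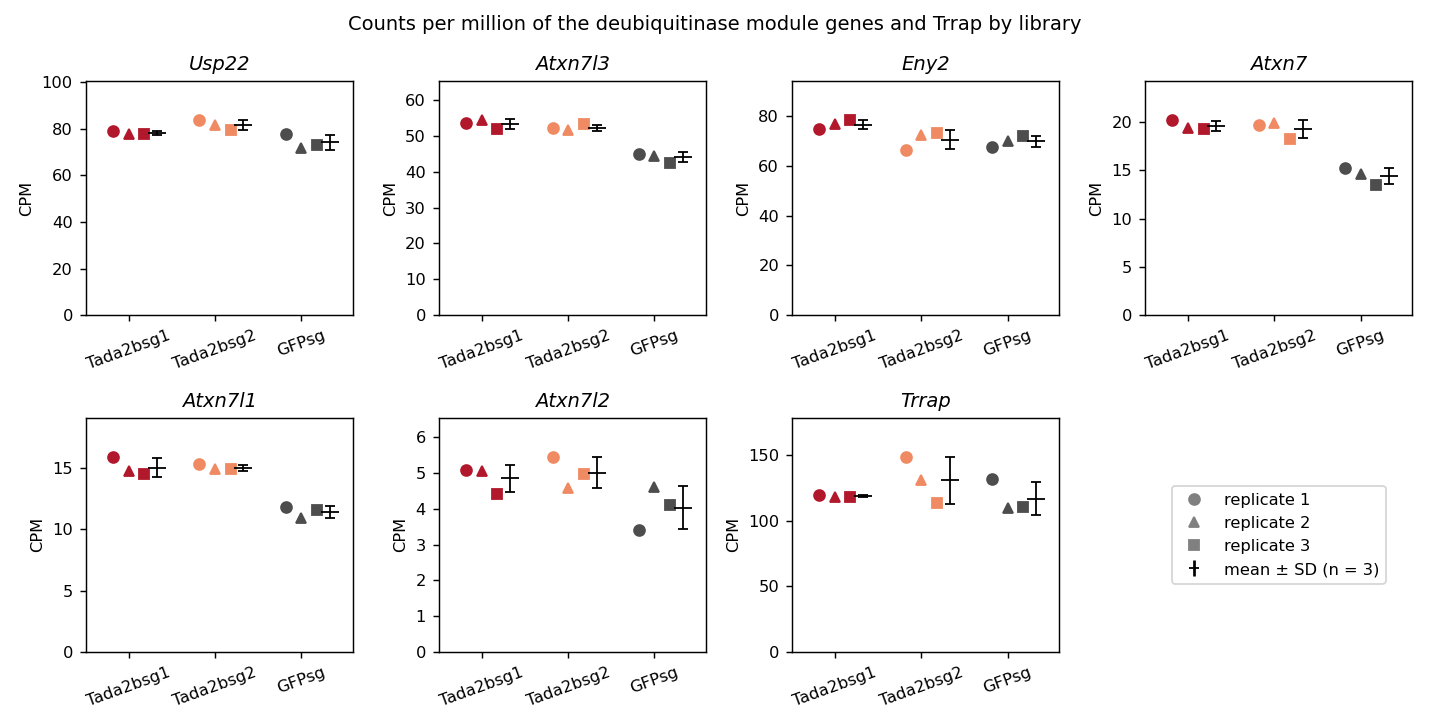
CPM of each gene in every library, with the guide on the horizontal axis, replicate numbers as marker shapes, and the mean ± SD of 3 libraries in black beside them. For Atxn7, Atxn7l1 and Atxn7l3 all 6 knockout libraries lie above all 3 GFPsg libraries, while the groups of Trrap overlap.

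Usp22 (ENSMUSG00000042506, chromosome 11, 61151785 to 61175055, minus strand, mm10) had 79.3, 78.0 and 77.7 CPM in Tada2bsg1 libraries and 83.8, 81.5 and 79.4 CPM in Tada2bsg2 libraries, against 77.8, 71.7 and 73.2 CPM in GFPsg libraries. All 3 Tada2bsg2 libraries were above the controls, and the Tada2bsg1 libraries overlapped with GFPsg replicate 1. Over both guides Usp22 rose by a log2 change of 0.11 (SE 0.036, 95% interval 0.03 to 0.18, edgeR adjusted p = 0.0195). This call was lost without GFPsg replicate 2 (0.094, adjusted p = 0.0727) and without GFPsg replicate 3 (0.11, adjusted p = 0.0537), and adjusted p ran from 0.00101 to 0.0727 over its 17 alternatives. By guide, the log2 change was 0.077 with Tada2bsg1 (SE 0.041, adjusted p = 0.137) and 0.14 with Tada2bsg2 (SE 0.041, adjusted p = 0.0121). With the replicate number as a block, the Tada2bsg1 change of 0.078 passed as well (adjusted p = 0.0492), as it did without GFPsg replicate 1 (0.11, adjusted p = 0.0345), in a range of 0.0102 to 0.282 over 18 alternatives.

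Atxn7l3 (ENSMUSG00000059995, chromosome 11, 102289300 to 102296631, minus strand), the adaptor that links Usp22 to nucleosomes and is required for its activity, had 53.6, 54.4 and 51.8 CPM in Tada2bsg1 libraries and 52.3, 51.5 and 53.2 CPM in Tada2bsg2 libraries, against 45.0, 44.5 and 42.4 CPM in GFPsg libraries. All 6 knockout libraries lay above all 3 controls, and the guides overlapped each other. The log2 change was 0.26 over both guides (SE 0.036, 95% interval 0.19 to 0.34, edgeR adjusted p = 1.05e-05), 0.28 with Tada2bsg1 (adjusted p = 2.91e-05) and 0.25 with Tada2bsg2 (adjusted p = 9.62e-05).

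Eny2 (ENSMUSG00000022338, chromosome 15, 44428042 to 44438256, plus strand) encodes the smallest subunit of the module, with 101 amino acids in its longest coding sequence, and also serves in the mRNA export complex TREX-2. It had 74.6, 76.6 and 78.3 CPM in Tada2bsg1 libraries and 66.3, 72.3 and 73.0 CPM in Tada2bsg2 libraries, against 67.4, 69.9 and 71.8 CPM in GFPsg libraries. The Tada2bsg1 libraries stood above the controls and above the Tada2bsg2 libraries, and the Tada2bsg2 libraries overlapped with the controls. Over both guides the log2 change of 0.076 did not pass the test (SE 0.039, 95% interval -0.007 to 0.16, edgeR adjusted p = 0.116). With the replicate number as a block the value was 0.076 with an adjusted p of 0.0267. It was also called with libraries scaled by their totals (0.16, adjusted p = 0.00118) and without Tada2bsg2 replicate 1 (0.11, adjusted p = 0.0122), and over 17 alternatives adjusted p ran from 0.00118 to 0.356. Eny2 rose with Tada2bsg1 (log2 change 0.14, SE 0.045, adjusted p = 0.0189) but lost this call without GFPsg replicate 1 (0.11, adjusted p = 0.0707), Tada2bsg1 replicate 2 (adjusted p = 0.0532) or Tada2bsg1 replicate 3 (adjusted p = 0.0555). With Tada2bsg2 the log2 change was 0.017 (SE 0.045, adjusted p = 0.792). Exons of Eny2 share 266 bp, or 4.62% of its exon length, with Nudcd1 on the opposite strand, which rose by a log2 change of 0.27 (SE 0.04, adjusted p = 3.28e-05), and with no strand setting stated for the counting the reads of that stretch cannot be assigned to either gene.

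Atxn7 (ENSMUSG00000021738, chromosome 14, 13961440 to 14107302, plus strand) encodes the subunit whose polyglutamine expansion causes spinocerebellar ataxia type 7 and which anchors the module in SAGA. It had 20.2, 19.4 and 19.3 CPM in Tada2bsg1 libraries and 19.7, 19.9 and 18.2 CPM in Tada2bsg2 libraries, against 15.2, 14.6 and 13.5 CPM in GFPsg libraries. No knockout library overlapped with a control. Atxn7 rose by a log2 change of 0.43 over both guides (SE 0.053, 95% interval 0.32 to 0.54, edgeR adjusted p = 2.95e-06), by 0.44 with Tada2bsg1 (adjusted p = 9.83e-06) and by 0.42 with Tada2bsg2 (adjusted p = 2.41e-05).

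Atxn7l1 (ENSMUSG00000020564, chromosome 12, 33147693 to 33373185, plus strand), a paralog that can take the place of Atxn7, had 15.9, 14.7 and 14.5 CPM in Tada2bsg1 libraries and 15.3, 14.9 and 14.9 CPM in Tada2bsg2 libraries, against 11.8, 10.9 and 11.6 CPM in GFPsg libraries. The lowest knockout library was above the highest control library. Its log2 change was 0.40 over both guides (SE 0.054, 95% interval 0.28 to 0.51, edgeR adjusted p = 8.64e-06), 0.40 with Tada2bsg1 (adjusted p = 3.84e-05) and 0.40 with Tada2bsg2 (adjusted p = 4.63e-05). An antisense transcript, Atxn7l1os2, shares 193 bp of its exons and had at most 11 reads in any library.

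Atxn7l2 (ENSMUSG00000048997, chromosome 3, 108202222 to 108210934, minus strand), the other Atxn7 paralog, had 5.08, 5.07 and 4.43 CPM in Tada2bsg1 libraries and 5.46, 4.59 and 4.98 CPM in Tada2bsg2 libraries, against 3.40, 4.62 and 4.11 CPM in GFPsg libraries. The groups overlapped through GFPsg replicate 2, which was above a library of each guide, and GFPsg replicate 1 was the lowest of all. Over both guides the log2 change was 0.29 (SE 0.101, 95% interval 0.075 to 0.50, edgeR adjusted p = 0.0243). Without GFPsg replicate 1 it was 0.18 and no longer called (adjusted p = 0.172), and without the 3 libraries numbered 1 it was 0.13 (adjusted p = 0.345, the highest of a range that began at 0.00487). By guide the log2 change was 0.27 with Tada2bsg1 (SE 0.115, adjusted p = 0.0679) and 0.31 with Tada2bsg2 (SE 0.115, adjusted p = 0.0365). The Tada2bsg2 call was lost when GFPsg replicate 1 or 3, or Tada2bsg2 replicate 1 or 3, was left out (adjusted p from 0.0557 to 0.174), and the Tada2bsg1 change passed without GFPsg replicate 2, Tada2bsg1 replicate 3 or Tada2bsg2 replicate 1 (adjusted p from 0.018 to 0.049).

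Trrap (ENSMUSG00000045482, chromosome 5, 144767732 to 144859778, plus strand) encodes a scaffold of 3859 amino acids in its longest coding sequence, a pseudokinase of the PI3K-related family that is shared by SAGA and the acetyltransferase complex NuA4/TIP60. It had 120, 118 and 118 CPM in Tada2bsg1 libraries and 149, 131 and 114 CPM in Tada2bsg2 libraries, against 132, 110 and 111 CPM in GFPsg libraries. Its libraries overlapped between all 3 groups, with a coefficient of variation of 0.911% within Tada2bsg1, 13.5% within Tada2bsg2 and 10.5% within GFPsg. The log2 change of 0.087 over both guides did not pass the test (SE 0.068, 95% interval -0.057 to 0.23, edgeR adjusted p = 0.311), and neither did 0.014 with Tada2bsg1 (SE 0.079, adjusted p = 0.901) nor 0.16 with Tada2bsg2 (SE 0.079, adjusted p = 0.11). The change over both guides passed without GFPsg replicate 1 (0.18, adjusted p = 0.036), without Tada2bsg2 replicate 3 (0.15, adjusted p = 0.0337) and without the 3 libraries numbered 1 (0.12, adjusted p = 0.0245), in a range of adjusted p from 0.0245 to 0.624. With the replicate number as a block, the Tada2bsg2 change of 0.16 passed (adjusted p = 0.0136, in a range of 0.00295 to 0.401), as it did without GFPsg replicate 1 (0.25) or Tada2bsg2 replicate 3 (0.27).

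The libraries in which Trrap was high or low were those in which long transcripts in general were so. In Tada2bsg2 replicate 1 Trrap stood 0.19 above its group mean on the log2 scale, and the median of 237 other genes with a longest transcript of at least 10 kb stood 0.125 above theirs. In Tada2bsg2 replicate 3 the corresponding deviations were -0.201 for Trrap and -0.124 for the long genes. In GFPsg replicate 1 they were 0.17 and 0.079. The 3 Tada2bsg1 libraries held Trrap within 0.015 of its group mean and long genes within 0.018 of theirs. Genes with a longest transcript of at most 1.5 kb, 1157 in number, deviated the other way in those 3 outlying libraries, by -0.07, 0.062 and -0.059. The part of this length-related spread in the Trrap values was not tested.

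**Figure D2:**
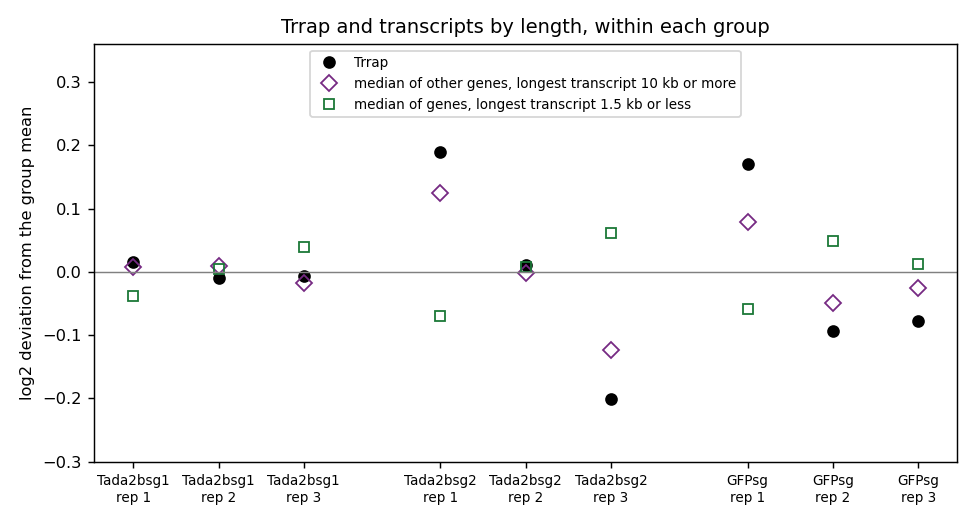
Log2 deviation from the group mean for Trrap (black), for the median of 237 other long genes (diamonds) and for the median of 1157 short genes (squares), in each of the 9 libraries. Trrap and the long genes lie on the same side of 0 by the widest margins in Tada2bsg2 replicates 1 and 3 and GFPsg replicate 1, with short genes on the other side.

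Each guide was also set against GFPsg on its own, and these comparisons share the 3 GFPsg controls, so they are not independent. With Tada2bsg1, 4 of the 7 genes were called higher and none lower, where 48.4% of all tested genes were called, 23.8% higher and 24.5% lower. They were Atxn7, Atxn7l1, Atxn7l3 and Eny2. With Tada2bsg2, 5 of 7 were called higher and none lower, where 45.1% of tested genes were called, 22.1% higher and 23.0% lower. These were Atxn7, Atxn7l1, Atxn7l2, Atxn7l3 and Usp22. The call differed between the guides for Usp22, Atxn7l2 and Eny2, yet a direct test of Tada2bsg2 against Tada2bsg1 called 0 of the 7 genes, in a comparison in which 3.68% of tested genes were called, 2.66% higher and 1.02% lower (660 genes, and 1705 with the replicate number as a block). At an unadjusted p under 0.05 it held 1 gene, Eny2 (log2 change -0.12, SE 0.045, unadjusted p = 0.0173, edgeR adjusted p = 0.185). DESeq2 and limma-voom called 0. With the replicate number as a block edgeR called Eny2 (-0.12, adjusted p = 0.0246, in a range of 0.0246 to 0.558), and without a filter on low counts it called Trrap (adjusted p = 0.0489). For the others the 95% intervals of the guide difference were -0.15 to 0.098 for Atxn7, -0.13 to 0.13 for Atxn7l1, -0.11 to 0.061 for Atxn7l3, -0.028 to 0.15 for Usp22, -0.19 to 0.28 for Atxn7l2 and -0.019 to 0.31 for Trrap.

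**Figure D3:**
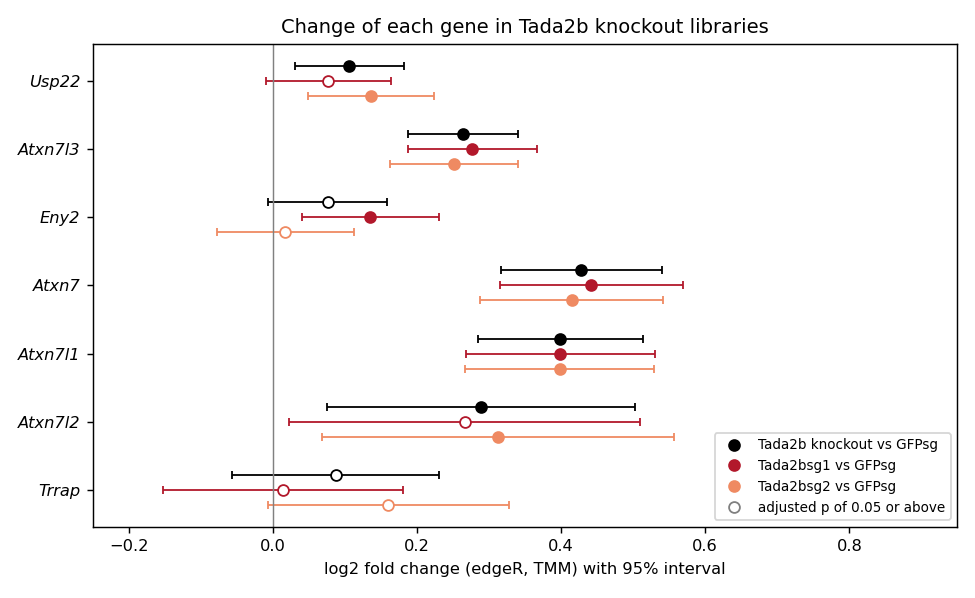
Log2 fold change of each gene over GFPsg with its 95% interval (horizontal axis), for both guides together (black), Tada2bsg1 (red) and Tada2bsg2 (orange), with open circles where the adjusted p was 0.05 or above. Atxn7, Atxn7l1 and Atxn7l3 have filled circles for each guide, and the Trrap circles are all open.

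The CPM ranges divided the genes differently from the test. All 6 knockout libraries lay above all 3 controls for Atxn7, Atxn7l1 and Atxn7l3, that is for 3 of the 7 genes, which is near the 44.0% of all tested genes whose libraries did not overlap. Usp22 and Atxn7l2 were called but overlapped. Against the same controls the Tada2bsg1 libraries did not overlap for 4 genes (55.9% of tested genes), and the Tada2bsg2 libraries did not for 4 genes (51.0% of tested genes). Between the guides 2 genes did not overlap, Eny2 and Usp22, where 23.3% of tested genes did not. Set against the control library with its own replicate number, each knockout library was higher in 6 of 6 pairs for Usp22, Atxn7, Atxn7l1 and Atxn7l3, and in 5 of 6 pairs for Atxn7l2, Eny2 and Trrap. The 6 pairs reuse the same 3 control libraries and are not independent. The share of all tested genes with such counts was not computed, so the counts are a description only. The log2 ratios of these pairs ran from 0.37 to 0.52 for Atxn7, from 0.32 to 0.45 for Atxn7l1 and from 0.21 to 0.33 for Atxn7l3. Those of Atxn7l2 ran from -0.01 to 0.68, with the highest pair ratios at replicate number 1, and those of Trrap from -0.14 to 0.25.

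Levels per length ordered the genes within the complex. Dividing CPM by the kilobases of all annotated exons, Usp22 was the highest, with 16 CPM per kb in Tada2bsg1 libraries and 16.7 in Tada2bsg2 libraries, against 15.2 in GFPsg libraries. Eny2 and Atxn7l3 came next. Eny2 had 13.3 CPM per kb with Tada2bsg1 and 12.2 with Tada2bsg2, against 12.1 with GFPsg. Atxn7l3 had 12.9 CPM per kb with Tada2bsg1 and 12.7 with Tada2bsg2, against 10.7 with GFPsg, so it stood above Eny2 in Tada2bsg2 libraries and below it in the others. Trrap stood at 5.69 CPM per kb with Tada2bsg1 and 6.29 with Tada2bsg2, against 5.63 with GFPsg. The anchoring subunits came last, Atxn7 with 2.46 CPM per kb in Tada2bsg1 libraries and 2.41 in Tada2bsg2 libraries, against 1.81 in GFPsg libraries. Below it were Atxn7l1 with 1.5 CPM per kb under either knockout guide, against 1.13 with GFPsg, and Atxn7l2 with 0.982 with Tada2bsg1 and 1.01 with Tada2bsg2, against 0.818 with GFPsg. Eny2 and Atxn7l3 overlapped within each knockout group and not within the controls, whereas every other pair of neighbours in this order stood apart within each of the 3 groups.

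The order depended on the length used, since the annotated exons include many that only some transcripts hold. With the longest transcript as the length, the means over 9 libraries were 24.1 CPM per kb for Eny2, 17.6 for Usp22, 13.4 for Atxn7l3, 9.81 for Trrap, 3.9 for Atxn7l1, 2.59 for Atxn7 and 1.44 for Atxn7l2. Eny2 then stood above Usp22, and Atxn7l1 above Atxn7. The protease and its adaptors stayed above all 3 anchoring subunits with either length.

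**Figure D4:**
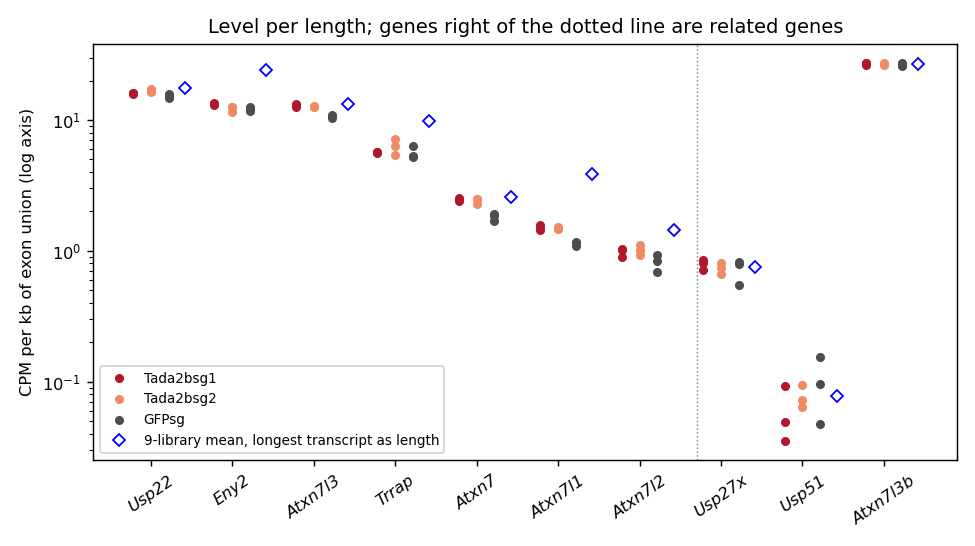
CPM per kb of exon union on a log axis, with each library as a point colored by guide and blue diamonds for the mean of 9 libraries with the longest transcript as the length. Usp22, Eny2 and Atxn7l3 lie above the Atxn7 paralogs, and Atxn7l3b, right of the dotted line, lies above all of them at 26.1 to 27.4 CPM per kb of exon union.

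The shares of the 3 anchoring paralogs hardly moved. Of their summed level per kb of exon, Atxn7 made up 49.8% ± 0.921 in Tada2bsg1 libraries and 49.0% ± 1.56 in Tada2bsg2 libraries, against 48.1% ± 2.26 in GFPsg libraries (mean ± SD, n = 3). Atxn7l1 made up 30.3% ± 0.465 with Tada2bsg1 and 30.4% ± 0.586 with Tada2bsg2, against 30.2% ± 1.79 with GFPsg. Atxn7l2 held the rest, 19.9% ± 1.01 with Tada2bsg1 and 20.6% ± 1.44 with Tada2bsg2, against 21.7% ± 3.05 with GFPsg. Each of these group differences was smaller than the SD among the control libraries. By the longest transcript instead, Atxn7l1 held the largest share, with 49.2% in Tada2bsg1 libraries and 49.3% in Tada2bsg2 libraries, against 48.9% in GFPsg libraries.

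Usp22 has a pair of relatives, Usp27x and Usp51, which in human cells use the same adaptors, ATXN7L3 and ENY2, outside SAGA. Usp27x had 3.08, 3.66 and 3.43 CPM with Tada2bsg1 and 2.87, 3.17 and 3.43 CPM with Tada2bsg2, against 3.42, 2.35 and 3.54 CPM with GFPsg. Its groups overlapped, and its log2 change of 0.071 did not pass the test (SE 0.123, edgeR adjusted p = 0.668). Usp51 had 6 to 25 reads in any library, and its log2 change of -0.57 did not pass the test (SE 0.412, adjusted p = 0.274). Its coefficient of variation was 50.8% within Tada2bsg1 and 20.6% within Tada2bsg2, against 53.6% within GFPsg. Per kb of exon, Usp22 made up 95% ± 0.303 of the summed level of the 3 proteases with Tada2bsg1 and 95.3% ± 0.465 with Tada2bsg2, against 94.9% ± 1.05 with GFPsg. Atxn7l3b, a relative of Atxn7l3 whose human counterpart holds ENY2 in the cytoplasm, had 94.0, 97.4 and 97.9 CPM with Tada2bsg1 and 97.1, 94.9 and 96.4 CPM with Tada2bsg2, against 94.7, 93.1 and 97.5 CPM with GFPsg. Its groups overlapped as well, with a log2 change of 0.018 (SE 0.032, 95% interval -0.05 to 0.086, adjusted p = 0.683), in contrast to the rise of Atxn7l3 in the same libraries. With libraries scaled by their totals alone, Atxn7l3b passed the test at a log2 change of 0.10 (adjusted p = 0.0147).

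In the rest of SAGA more genes rose than fell, in a comparison in which 51.0% of all tested genes were called, 24.7% higher and 26.3% lower. In the acetyltransferase module 4 of 5 genes rose and none fell, with a median log2 change of 0.16. They were Tada3 (0.46), an adaptor of the module, the paired acetyltransferases Kat2b (0.23) and Kat2a (0.14), and Tada2b itself (0.16), the last of which was not called without GFPsg replicate 2 (adjusted p = 0.0534). Tada2b, the targeted gene, rose with Tada2bsg1 (0.30) but not with Tada2bsg2 (0.020). Kat2a was called with Tada2bsg2 (0.175, edgeR adjusted p = 0.00377) but not with Tada2bsg1 (0.098, adjusted p = 0.0795). In the SAGA core, which holds the histone-fold subunits and the surface for TBP, 5 of 10 rose and 1 fell, with a median of 0.12. Taf9, also counted in the core, had only 7 to 24 reads in any library and did not pass the test. Whether other genes share its exons was not examined, so these counts do not show that Taf9 was little expressed. Taf9b (1.18), a TFIID-related histone-fold subunit, had 45.0 CPM with Tada2bsg1 and 41.8 CPM with Tada2bsg2, against 19.1 CPM with GFPsg. Supt20 (0.47), Taf5l (0.30) and Taf12 (0.22) also rose. The 1 gene that fell was Tada1 (-0.15, edgeR adjusted p = 0.0276), named after its values were seen. Tada1 was called with neither guide alone (adjusted p = 0.0566 with Tada2bsg1 and 0.0617 with Tada2bsg2). The alternative settings were not examined for it.

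In the complexes that share a subunit with these genes, called genes lay in both directions, as they did among all tested genes, of which 24.7% were called higher and 26.3% lower. Of 5 other genes of TREX-2, the export complex that shares Eny2, 1 rose and 3 fell, with a median log2 change of -0.12. Cetn2 (-0.40) and Sem1 (-0.22) fell, Cetn3 rose (0.15), and Mcm3ap, the scaffold, fell (-0.12) but was not called with libraries scaled by their totals (-0.039, adjusted p = 0.512). Cetn3 was not called without GFPsg replicate 1 or 2 (adjusted p up to 0.16), nor Mcm3ap when a GFPsg library, Tada2bsg1 replicate 1 or 3, or Tada2bsg2 replicate 3 was left out (adjusted p up to 0.0805). By guide, Cetn3 was called with Tada2bsg1 (0.256, edgeR adjusted p = 0.0027) but not with Tada2bsg2 (0.051, adjusted p = 0.552). Mcm3ap was likewise called with Tada2bsg1 (-0.183, adjusted p = 0.00484) but not with Tada2bsg2 (-0.066, adjusted p = 0.297). The direct test between the guides called neither (adjusted p = 0.0911 for Cetn3 and 0.232 for Mcm3ap). Of 17 other genes of NuA4/TIP60, the complex that shares Trrap, 3 rose, 4 fell and 10 did not pass, with a median of -0.033, which is near the shares of all tested genes. Mbtd1 (-0.38), a reader of methylated histone H4, Actl6a (-0.29), an actin-related subunit, Yeats4 (-0.24) and Morf4l1 (-0.18) fell. Among 8 genes of the TTT chaperone, which matures Trrap and the related kinases, and of those kinases, 2 rose and 2 fell over both guides, with a median of 0.074. By guide, 1 rose and 3 fell with Tada2bsg1 (median -0.03), where 23.8% of all tested genes were called higher and 24.5% lower. With Tada2bsg2, 5 rose and 2 fell (median 0.15), where 22.1% of all tested genes were called higher and 23.0% lower. Of the risers, Atm, Prkdc and Smg1 had SDs of 10.7, 2.63 and 15.9 CPM within Tada2bsg2. Within Tada2bsg1 these SDs were 1.56, 0.602 and 4.94 CPM. The SDs of the other risers, Tti1 and Atr, were no wider within Tada2bsg2 than within Tada2bsg1. Whether these genes followed the length-related spread described for Trrap was not tested. Telo2, the central TTT subunit, had 42.4 CPM with Tada2bsg1 and 48.7 CPM with Tada2bsg2, against 71.7 CPM with GFPsg (log2 change -0.66, SE 0.034, edgeR adjusted p = 4.16e-11). Tti2 (-0.17), another TTT subunit, also fell, and the kinase genes Atr (0.13) and Smg1 (0.14) rose, the last of which was not called without GFPsg replicate 2 or 3 (adjusted p up to 0.0592). Smg1 was called with Tada2bsg2 (0.191, edgeR adjusted p = 0.00839) but not with Tada2bsg1 (0.094, adjusted p = 0.172).

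The enzymes that put ubiquitin on histone H2B, and other enzymes that take it off, were examined as well. Of 11 genes of the H2B ubiquitination machinery, 5 rose and 3 fell, with a median log2 change of 0.077. Among all tested genes 24.7% were called higher and 26.3% lower. Rnf40 (0.29), a subunit of the H2B ubiquitin ligase, Paf1 (0.28) of the elongation complex that recruits it, and the ligase cofactor Wac (0.21) rose, while the conjugating enzyme Ube2b fell (-0.30). Of 12 genes for other histone H2A and H2B deubiquitinases and their cofactors, 3 rose and 3 fell, with a median of 0.038, again near the shares of all tested genes. Usp49 (0.51) and Usp3 (0.25) rose, whereas the cofactor Wdr48 (-0.35) and Bap1 (-0.16), the H2A deubiquitinase, fell. Among the named genes of these lists, the falls of Bap1, Morf4l1 and Tti2, like that of Mcm3ap, were not called with libraries scaled by their totals.

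**Figure D5:**
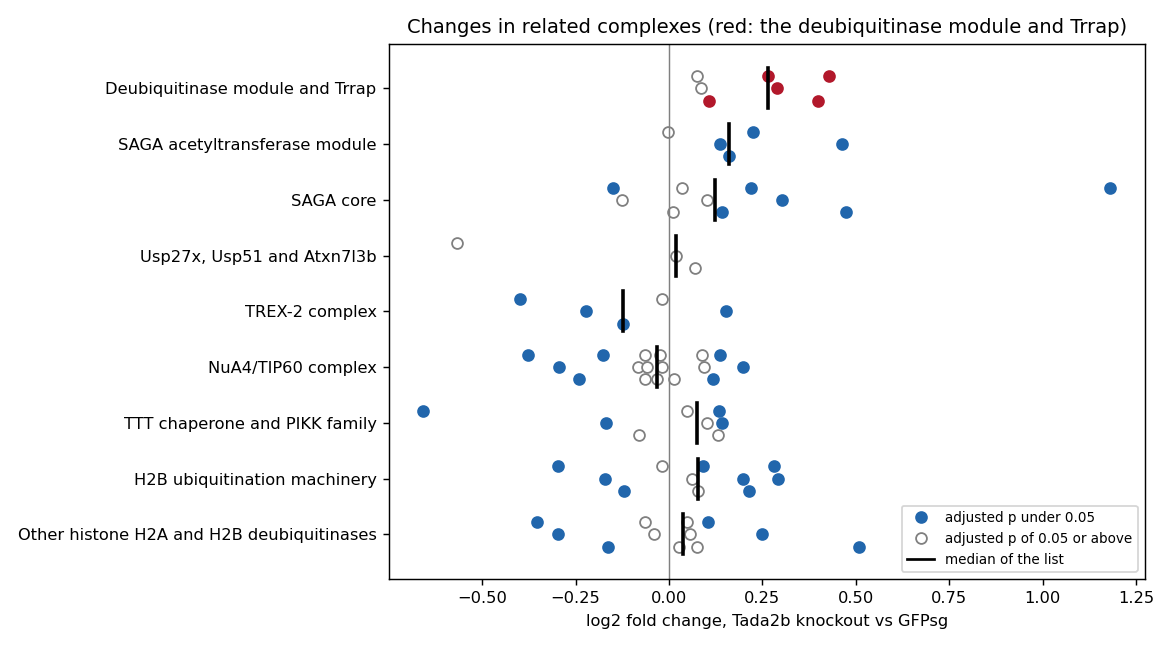
Log2 fold change in knockout over GFPsg libraries (horizontal axis) of the tested genes in each list, one list a row, with filled circles where the adjusted p was under 0.05 and a black bar at the list's median. The deubiquitinase genes and Trrap, in red, run from 0.076 to 0.43, while TREX-2, NuA4/TIP60 and the other lists of enzymes spread to both sides of 0.

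The promoters of the 3 genes whose knockout libraries all lay above the controls are printed so that their sequences can be compared. Each is the 250 bases before the RefSeq start in GRCm38.p6, written 5′ to 3′ on the gene's own strand, with capitals at each GC box, GGGCGG on either strand. That motif was in 32.7% of 32851 promoter windows of this length. The RefSeq start of Atxn7 at 14012491 lies inside the GENCODE gene, and for Atxn7l1 the start nearest the GENCODE gene start was taken of 5.
Atxn7, chr14:14012241-14012490, plus strand: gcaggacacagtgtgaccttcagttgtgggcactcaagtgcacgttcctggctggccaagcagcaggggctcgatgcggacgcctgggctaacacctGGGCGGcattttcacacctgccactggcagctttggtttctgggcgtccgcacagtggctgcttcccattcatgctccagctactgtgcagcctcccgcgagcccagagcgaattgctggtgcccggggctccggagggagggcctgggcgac
Atxn7l1, chr12:33147436-33147685, plus strand: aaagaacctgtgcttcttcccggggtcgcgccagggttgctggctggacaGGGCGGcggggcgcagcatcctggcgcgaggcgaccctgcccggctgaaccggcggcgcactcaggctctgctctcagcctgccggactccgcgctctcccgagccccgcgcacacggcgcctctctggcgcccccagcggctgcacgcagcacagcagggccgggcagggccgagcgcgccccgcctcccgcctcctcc
Atxn7l3, chr11:102296630-102296879, minus strand: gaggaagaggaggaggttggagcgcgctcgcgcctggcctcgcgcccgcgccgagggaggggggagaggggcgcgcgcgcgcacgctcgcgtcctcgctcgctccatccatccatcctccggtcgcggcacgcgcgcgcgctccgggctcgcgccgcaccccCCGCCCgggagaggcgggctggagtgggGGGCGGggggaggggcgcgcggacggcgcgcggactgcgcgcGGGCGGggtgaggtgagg

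The Atxn7 and Atxn7l1 windows held 1 GC box each and the Atxn7l3 window 3, at 81.2% G and C. The Trrap window also held 1 and the Atxn7l2 window none, and a link between these boxes and the changes was not tested. The RefSeq starts of Trrap at 144768794 and of Atxn7l2 at 108210527 also lie inside their GENCODE genes. Of the other motifs searched on both strands, that of NRF1 (in 3.7% of windows) occurred once, in Atxn7l2. The ETS motif CCGGAAG (6.9% of windows), the E-box CACGTG (6.0%), CCAAT (33.8%) and the CRE TGACGTCA (1.5%) were in none of these 5 windows. A match is a description of letters and not a bound site. Usp22 and Eny2 had no entry in the promoter table used.

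For each of the 5 genes that passed in the knockout comparison, the tested genes most like it were sought by Pearson's r of log2 CPM over the 9 libraries, among 9675 genes with a mean of at least 5 CPM. These points share the split into knockout and control libraries and the replicate numbers, so r is a description only. Closest to Atxn7 were Tubb2b (r = 0.995), Mprip (0.993) and Aox1 (0.993). Closest to Atxn7l1 were Jazf1 (0.998), Nub1 (0.993) and Ccdc86 (0.992), and closest to Atxn7l3 were Tmbim1 (0.994), Egr1 (0.993) and Nab2 (0.992). Usp22 was nearest to Fndc3a (0.985), Ccnk (0.985) and Arhgef7 (0.982). Likeness was lower for Atxn7l2, whose nearest genes were Srsf9 (0.923), Shox2 (0.905) and Pphln1 (0.895). A close pattern did not mean a change of the same size, since Tubb2b rose by a log2 change of 1.43 and Egr1 by 1.45, against 0.43 for Atxn7 and 0.26 for Atxn7l3. Among the genes of the module, Atxn7 had r of 0.956 with Atxn7l1 and 0.961 with Atxn7l3, but 0.386 with Eny2.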

How the data were processed

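The library kit was KAPA Stranded mRNA-Seq, per the labels' protocols. The authors deposited 1 table of raw read counts per Ensembl gene. Per the submitters' processing notes the tools were bcl2fastq, HISAT2 and HTSeq with mm10; their versions, the annotation and the strand setting are not given in the sources used here. Of 54752 identifiers, 54723 matched GENCODE M21, and no row was a total. Counts were tested here in R 4.3.3 with edgeR 4.0.16: filterByExpr with a count minimum of 10, TMM, 1 quasi-likelihood fit of 3 groups with 4 contrasts, and Benjamini-Hochberg adjustment. Standard errors are the change over the square root of F. Alternatives used DESeq2 1.42.0, limma 3.58.1, other scalings and filters, a replicate block, and each library left out. In simulated data for the knockout comparison (17931 genes), 78% of changes of 0.3 (log2) and 2% of changes of 0.1 were called. Only 50 genes were changed at each size there, whereas 51.0% of tested genes were called in the real data. The Benjamini-Hochberg threshold was therefore stricter in the simulation, and its shares do not carry over to the real comparison.

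Replicate numbers come from the titles. Deviations from group means over the 5000 most expressed genes correlated at 0.149 to 0.694 in all 9 pairs of libraries that share a number. Pairs from different groups with different numbers ran from -0.628 to 0.363, so some exceeded pairs that share a number. The numbers were therefore taken as a possible pairing of the samples. The fit without the block was the main one, so its p-values, SEs and intervals take no account of such a pairing.

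The genes and lists were chosen with earlier results of these data known. From each list the up to 4 tested genes with the lowest p in the knockout comparison were named, and for likeness the 3 genes with the highest r, leaving out predicted and clone names. Levels used GENCODE exon unions, and promoters came from RefSeq (GRCm38.p6), which matched 5 of 7 genes.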

Additional observations from a re-analysis of the deposited data

Results flagged for a closer look

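Of 78 tested genes of the module, Trrap and the related complexes, cell type markers not counted, 3 were called by the direct test of Tada2bsg2 against Tada2bsg1, a comparison in which 3.68% of all tested genes were called, so the count itself is near that background. Of the melanocyte markers, 8 of 8 were called higher with Tada2bsg2 than with Tada2bsg1 (median log2 change 0.50). Tada2b was lower with Tada2bsg2, at 27.0 ± 1.73 CPM, than with Tada2bsg1, at 32.8 ± 0.53 CPM (log2 change -0.282, edgeR adjusted p = 0.00671, mean ± SD, n = 3 each). Telo2 was higher with Tada2bsg2, at 48.7 CPM, than with Tada2bsg1, at 42.4 CPM (log2 change 0.201, edgeR adjusted p = 0.00921), and lost the call without Tada2bsg1 replicate 2 or replicate 3, with adjusted p up to 0.0641. Prkdc, a kinase of the same family as Trrap named here after its values were seen, had 36.7 CPM with Tada2bsg2 and 31.2 CPM with Tada2bsg1 (log2 change 0.235, edgeR adjusted p = 0.0251, up to 0.153 when a library was left out). Its SD was 2.63 CPM with Tada2bsg2 and 0.602 CPM with Tada2bsg1, and the part of transcript length in this was not tested. None of the 7 genes of the module and Trrap was among the 3.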

How the results depend on the processing

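Of 497 recomputed changes of the 7 genes, 450 kept their direction and side of the threshold, 12 fell short of it, 22 newly passed and 13 changed sign, none of these called. Atxn7, Atxn7l1 and Atxn7l3 were called higher over both guides in all 17 alternatives and for each guide in all 18. Between the guides the block called 1 of the 7 genes and 1705 genes in all, no filter called 1 and 1070, and leaving out a library gave 335 to 808 genes against 660 (335 without Tada2bsg1 replicate 3, 345 without its replicate 2, 399 without Tada2bsg2 replicate 2). Block calls that differ stand beside their results, and the block changed no other call of the 7 genes.

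Signs changed when a library was left out for Usp27x over both guides (-0.078 to 0.186), Trrap with Tada2bsg1 (-0.02 to 0.104) and Eny2 with Tada2bsg2 (-0.008 to 0.075), and between the guides for Atxn7 (-0.051 to 0.012), Atxn7l1 (-0.03 to 0.042) and Atxn7l2 (-0.019 to 0.104). Atxn7l1 between the guides was also 0.001 with DESeq2 size factors and with DESeq2, 0.002 with library totals and 0.028 without the libraries numbered 1, a setting chosen after seeing the data; the cause was not tested. Of calls with Tada2bsg1, 63.1% were higher with library totals, against 49.3% with TMM, and of calls with Tada2bsg2, 65.1% against 49.0%.

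Without division by length, Atxn7l1 made up 38.0% (Tada2bsg1), 38.3% (Tada2bsg2) and 38.2% (GFPsg) of the paralogs and Atxn7l2 12.3% (Tada2bsg1), 12.7% (Tada2bsg2) and 13.5% (GFPsg). Of the proteases, Usp22 then made up 95.7% (Tada2bsg1) and 96.1% (Tada2bsg2), Usp27x 4.14% (Tada2bsg1) and 3.73% (Tada2bsg2), and Usp51 0.157% (Tada2bsg1), 0.198% (Tada2bsg2) and 0.276% (GFPsg). Levels by longest transcript were 17.6 (Usp22), 2.59 (Atxn7), 3.9 (Atxn7l1), 1.44 (Atxn7l2), 13.4 (Atxn7l3), 24.1 (Eny2) and 9.81 (Trrap) CPM per kb. The test of Usp51 rested on 6 to 25 reads in any library, and the part of depth in its result was not tested.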
